A study of Mus musculus with 10 samples.

Results

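The genes described here are 10 mouse genes that mark the hepatocytes around the central vein of the liver or answer to Wnt signalling there, namely Glul, Oat, Axin2, Lgr5, Tbx3, Rnf43, Znrf3, Rgn, Gulo and Lect2. They were found by symbol in the count table, and all 10 were present among its 24421 genes. The livers came from 10 wild-type male C57BL/6 mice (C57BL/6 J in the study's methods) aged 21 weeks, fed freely. Of these, 5 ate standard chow alone (Chow) and 5 ate chow with TM5614 mixed in at 20 mg/kg/day for 10 days (TM5614). TM5614 is a small-molecule compound, given by mouth, that blocks PAI-1, the main inhibitor of the plasminogen activators. No mouse carried an altered allele, and each library was made from the poly(A) RNA of the liver of 1 mouse.

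Liver lobules are divided into zones along the path of the blood, which enters beside the portal vein and drains into the central vein. Endothelial cells of the central vein release Wnt ligands and the R-spondin Rspo3, which keep β-catenin active in the hepatocytes next to them and so maintain the pericentral gene programme. The signal is adjusted at several points. Axin2, a scaffold of the complex that degrades β-catenin, is induced by the pathway as negative feedback. The membrane ubiquitin ligases Rnf43 and Znrf3 remove Frizzled receptors, and Lgr5 is a receptor through which R-spondins block these ligases. Tbx3 is a T-box transcription factor expressed in pericentral hepatocytes. Glul (glutamine synthetase) and Oat (ornithine aminotransferase) are enzymes of pericentral nitrogen metabolism. Rgn (regucalcin, a gluconolactonase) and Gulo (L-gulonolactone oxidase) catalyse the last steps of ascorbate synthesis in rodents, and Lect2 is a chemotactic protein that hepatocytes secrete.

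To show the DNA just before members with different outcomes, 3 promoter windows are given. Each holds the 250 bases before a transcription start, read on the strand of the gene from RefSeq windows on GRCm38.p6, whose starts can differ from those of other annotations. Glul was taken as the classical pericentral gene (chr1:153899679-153899928, plus strand), Axin2 as the member that rose (chr11:108920099-108920348, plus strand) and Lect2 as a member that fell (chr13:56548539-56548788, minus strand). Capitals mark a match to CTTTGAT or CTTTGTT, core letters bound by the Tcf/Lef factors that work with β-catenin, on either strand.
Glul: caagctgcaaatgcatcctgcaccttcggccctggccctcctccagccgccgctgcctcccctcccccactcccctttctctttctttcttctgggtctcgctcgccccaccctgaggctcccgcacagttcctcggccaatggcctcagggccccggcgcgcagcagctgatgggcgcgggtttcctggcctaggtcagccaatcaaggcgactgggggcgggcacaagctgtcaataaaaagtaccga
Axin2: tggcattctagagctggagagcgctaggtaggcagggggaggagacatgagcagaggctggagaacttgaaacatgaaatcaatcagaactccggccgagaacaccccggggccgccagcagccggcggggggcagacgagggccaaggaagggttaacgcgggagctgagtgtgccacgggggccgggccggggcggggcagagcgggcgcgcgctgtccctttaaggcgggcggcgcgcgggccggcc
Lect2: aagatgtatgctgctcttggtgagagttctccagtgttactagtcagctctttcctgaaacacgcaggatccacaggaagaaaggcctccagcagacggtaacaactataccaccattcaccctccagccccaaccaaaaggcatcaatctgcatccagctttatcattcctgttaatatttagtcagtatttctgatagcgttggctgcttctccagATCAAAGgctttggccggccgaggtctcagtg

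Windows were found for 5 of the 10 members (Glul, Oat, Axin2, Rnf43 and Lect2). Only Lect2 held a match among these 5, the letters ATCAAAG, which read CTTTGAT on the other strand and begin 32 bases before the start. Of the 32851 windows of this length, 3.21% held CTTTGAT, 5.03% held CTTTGTT and 8.06% held either, so that a match of this kind is not rare. The 2 motifs differ in 1 letter and cannot overlap at the same bases on the same strand. A match describes letters only, and a window without one says nothing about binding by these factors elsewhere.

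Library totals ran from 6398335 to 10874955 counts, and all 10 members passed the filter on low counts. Levels are given in CPM (counts relative to library size), scaled by the trimmed mean of M-values (TMM). Of the 11092 genes tested with edgeR's quasi-likelihood test, 499 had a Benjamini-Hochberg adjusted p under 0.05, 192 higher and 307 lower in TM5614. A pair of libraries stood apart. In Chow 2, a trend with GC content and gene length held 46.7% of the variance of its deviations from the typical level over libraries. In the other 9 this share was 0.959% to 12.8%. The mean correlation of Chow 2 with its own group was 0.927, against 0.965 to 0.970 for the other Chow libraries. In TM5614 2, 12 skeletal muscle genes made up 0.479% of the counts, against 0.00137% to 0.00985% in the others. The 8 defining hepatocyte genes summed to 112959 to 126984 CPM in Chow and 98413 to 116183 CPM in TM5614. For the members and the genes named below, values without one or both of these libraries are given where they moved by over 1.5 times or where the call changed.

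In TM5614 livers, Axin2 rose and Rgn, Gulo and Lect2 fell, while Glul, Oat, Lgr5, Tbx3, Rnf43 and Znrf3 did not pass the test. These 4 of 10 members called compare with 4.50% of all genes tested, and the 1 higher and 3 lower compare with backgrounds of 1.73% and 2.77%. The same 4 were the members whose groups did not overlap in CPM, which held for 8.93% of all genes tested. The median log2 fold change (TM5614 minus Chow) over the 10 members was -0.07, beside 0.01 over all genes, since 5 estimates lay above 0 and 5 below. The median size of the change regardless of sign was 0.60 for the members and 0.22 for all genes. Since the members were chosen with earlier results of these data known, these comparisons with all genes do not test for enrichment. In whole liver, fewer pericentral cells and less RNA per cell cannot be told apart.

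**Figure D1:**
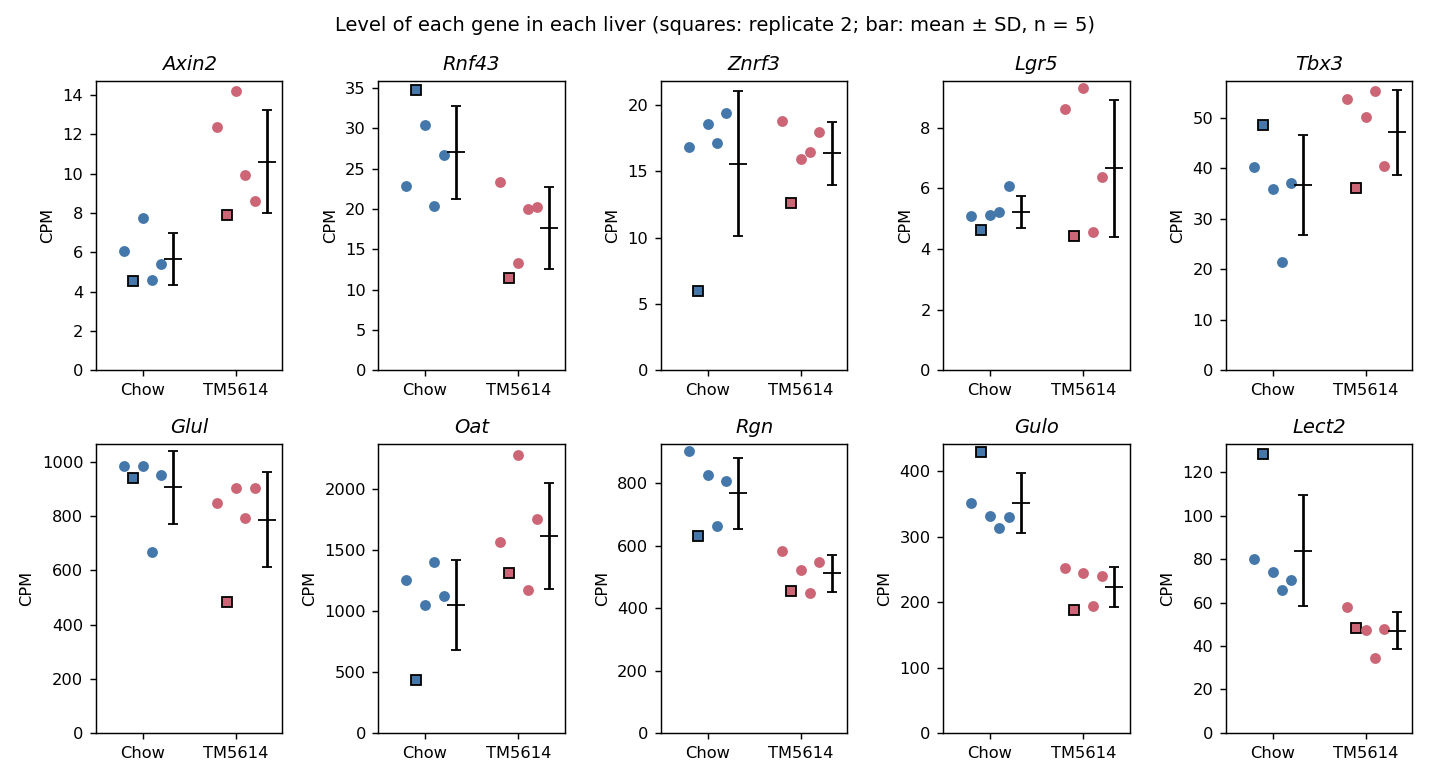
CPM of each of the 10 genes (y axis, from 0) in each liver of the Chow and TM5614 groups (x axis). Points are single mice, squares with a black edge are Chow 2 and TM5614 2, and bars give the mean ± SD (n = 5). TM5614 points lie above all Chow points for Axin2 and below all of them for Rgn, Gulo and Lect2, and the groups overlap for the other 6 genes.

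Of the genes that adjust the pathway, Axin2 (chr11:108920349-108950783, plus strand) was 1.87 times as high on average in TM5614, and it was the 1 member that rose. Its levels in Chow 1 to 5 were 6.06, 4.53, 7.73, 4.59 and 5.43 CPM, and in TM5614 1 to 5 they were 12.3, 7.92, 14.2, 9.94 and 8.62 CPM. The lowest TM5614 liver was just above the highest Chow liver, and TM5614 3 and 1 were the highest of all. The means were 5.67 ± 1.31 and 10.6 ± 2.63 CPM (SD, n = 5 each), and the log2 fold change was 0.90 (SE 0.21, with an adjusted p of 0.0304 in edgeR). These are small numbers of reads, 29 to 74 counts per library in Chow and 61 to 124 in TM5614. Without Chow 2 and TM5614 2, the log2 fold change was again 0.90 (adjusted p = 0.0130). When single libraries were left out it ranged from 0.77 to 1.04, and the adjusted p passed 0.05 without Chow 1 (0.0536), 4 (0.0739) or 5 (0.0642) or without TM5614 1 (0.0759), 3 (0.0955) or 4 (0.0669).

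Rnf43 (chr11:87662722-87735539, plus strand), the first of the paired ligases, was at 22.8, 34.7, 30.5, 20.4 and 26.7 CPM in Chow 1 to 5 and at 23.4, 11.4, 13.3, 20.0 and 20.2 CPM in TM5614 1 to 5. The groups overlapped through TM5614 1 alone, since TM5614 2 and 3 were far below, and 4 and 5 just below, the lowest Chow liver. Means of 27.0 ± 5.76 and 17.7 ± 5.07 CPM gave a log2 fold change of -0.62 (SE 0.21), which missed the threshold after adjustment (unadjusted p = 0.0124, edgeR adjusted p = 0.128). Without the 2 libraries that stood apart, the estimate was -0.40 (adjusted p = 0.148).

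Its partner Znrf3 (chr11:5276324-5444847, minus strand) was at 16.9, 5.98, 18.6, 17.1 and 19.4 CPM in Chow and at 18.8, 12.6, 15.9, 16.5 and 18.0 CPM in TM5614. Chow 2 was far below every other liver, TM5614 2 was the next lowest, and the other 8 livers lay between 15.9 and 19.4 CPM. The log2 fold change was 0.07 (SE 0.26, with an adjusted p of 0.895 in edgeR), and without Chow 2 it was -0.15 (adjusted p = 0.518), so that the sign of the estimate rested on that library. The Rnf43 to Znrf3 ratio, taken per length in deposited FPKM, ran from 2.12 to 2.91 in Chow apart from 10.3 in Chow 2, and from 1.48 to 2.21 in TM5614.

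Lgr5 (chr10:115450311-115587780, minus strand), the R-spondin receptor, was the lowest member per length, at 5.09, 4.63, 5.12, 5.23 and 6.07 CPM in Chow and at 8.62, 4.41, 9.29, 4.57 and 6.36 CPM in TM5614. In CPM the Chow livers were close together, whereas TM5614 livers 1, 3 and 5 lay above all of them and livers 2 and 4 below all of them. These are small numbers of reads, 33 to 66 counts per library in Chow and 34 to 81 in TM5614, so that counting error is large. After the correction for GC content and gene length described below, Chow 2 was at 6.87 CPM, above TM5614 5 at 5.90 CPM. The log2 fold change was 0.34 (SE 0.22, with an adjusted p of 0.403 in edgeR). Without TM5614 3 it was 0.19 (adjusted p = 0.713), and over single omissions it ran up to 0.45.

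The transcription factor Tbx3 (chr5:119670669-119684724, plus strand) was at 40.3, 48.7, 36.0, 21.4 and 37.2 CPM in Chow and at 53.8, 36.2, 50.1, 55.3 and 40.5 CPM in TM5614. TM5614 livers 1, 3 and 4 were above every Chow liver, and the groups overlapped through the others. With all libraries the log2 fold change was 0.36 (SE 0.20, with an adjusted p of 0.328 in edgeR). Without Chow 2 and TM5614 2 it was 0.55 (adjusted p = 0.0475), the only alternative of 21 in which a member outside the 4 was called. Without Chow 4 alone it was 0.21 (adjusted p = 0.495). Without both libraries numbered 2, 11.1% of all genes tested were called, against 4.50% with all libraries.

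Among the enzymes of nitrogen metabolism, Glul (chr1:153899944-153909723, plus strand), which joins ammonia to glutamate, was at 984, 940, 985, 670 and 951 CPM in Chow and at 847, 485, 904, 795 and 904 CPM in TM5614. In each group 4 livers were close together and 1 was far below, Chow 4 and TM5614 2. Means were 906 ± 134 and 787 ± 175 CPM, with a log2 fold change of -0.20 (SE 0.17, with an adjusted p of 0.527 in edgeR). Leaving out TM5614 2 moved the estimate to -0.07 (adjusted p = 0.768).

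Oat (chr7:132557478-132576398, minus strand), which links ornithine to glutamate, was at 1254, 436, 1049, 1399 and 1127 CPM in Chow and at 1566, 1310, 2282, 1172 and 1755 CPM in TM5614. TM5614 livers 1, 3 and 5 were above every Chow liver, and Chow 2 was far below the rest. The log2 fold change of 0.62 (SE 0.27) missed the threshold after adjustment (unadjusted p = 0.0428, edgeR adjusted p = 0.230), and without Chow 2 it was 0.42 (adjusted p = 0.176). The Glul to Oat ratio per length was 0.602, 1.66, 0.721, 0.367 and 0.648 in Chow and 0.415, 0.284, 0.304, 0.521 and 0.396 in TM5614, so that Oat was the higher of the pair per length in every liver but Chow 2.

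Both enzymes of ascorbate synthesis fell, each to about 2 parts in 3 of its Chow level. Rgn (chrX:20549787-20562089, plus strand), which forms the gulonolactone ring, was at 905, 633, 829, 665 and 809 CPM in Chow and at 583, 456, 523, 448 and 548 CPM in TM5614. The TM5614 livers all lay below the lowest Chow liver, Chow 2. Means were 768 ± 115 and 512 ± 58.3 CPM, a ratio of 0.666, with a log2 fold change of -0.59 (SE 0.13, with an adjusted p of 0.0230 in edgeR). Without the 2 libraries that stood apart the log2 fold change was -0.61 (adjusted p = 0.00447). Single omissions gave -0.65 to -0.53, and the adjusted p passed 0.05 without Chow 3 (0.0669) or 5 (0.0515) or without TM5614 2 (0.0534), 3 (0.0650) or 4 (0.0753).

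Gulo (chr14:65986786-66009207, minus strand), which oxidises that product to ascorbate, was at 352, 430, 331, 313 and 331 CPM in Chow and at 252, 188, 244, 193 and 240 CPM in TM5614. The highest TM5614 liver was well below the lowest Chow liver, and the Chow livers other than Chow 2 lay close together. Means were 351 ± 46.1 and 224 ± 30.4 CPM, a ratio of 0.636, with a log2 fold change of -0.65 (SE 0.13, with an adjusted p of 0.0124 in edgeR). Gulo was the 1 member called in each of the 10 fits that left out a single library, at -0.70 to -0.58 with adjusted p values of 0.00483 to 0.0463.

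The secreted protein gene Lect2 (chr13:56542464-56548502, minus strand) had the largest fall of the members with all libraries, to 0.562 of the Chow mean. It was at 80.3, 128, 74.1, 65.6 and 70.7 CPM in Chow and at 57.9, 48.4, 47.4, 34.4 and 47.7 CPM in TM5614. Chow 2 was far above the other Chow livers, which all remained above the highest TM5614 liver. Means were 83.8 ± 25.5 and 47.2 ± 8.36 CPM, with a log2 fold change of -0.83 (SE 0.19, with an adjusted p of 0.0317 in edgeR). Without Chow 2 the log2 fold change was -0.63 (adjusted p = 0.00825). The Chow means without Chow 2 were 72.7 CPM for Lect2 and 802 CPM for Rgn. By these means Rgn, at 512 CPM in TM5614, fell slightly more than Lect2. The adjusted p of Lect2 passed 0.05 without Chow 1 (0.0550) or 3 (0.0558) or without TM5614 2 (0.0655), 3 (0.0903), 4 (0.0893) or 5 (0.0721), and its estimates over the single omissions ran from -0.92 to -0.63.

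**Figure D2:**
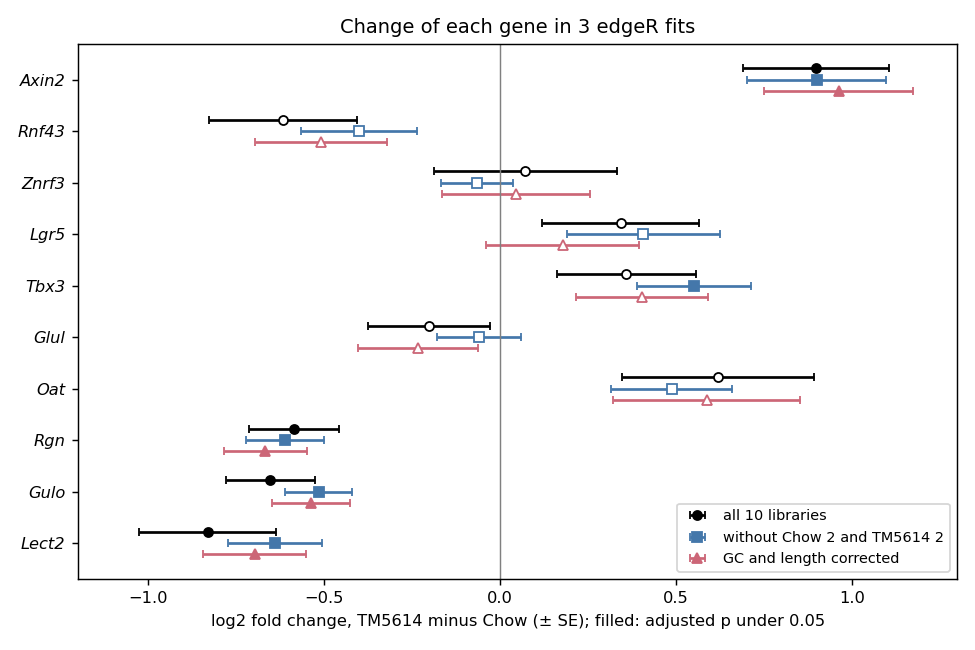
Log2 fold change, TM5614 minus Chow, with its SE (x axis) for each gene (y axis) in 3 edgeR fits: all 10 libraries (circles), without Chow 2 and TM5614 2 (squares) and with a GC content and gene length correction (triangles). Filled symbols have an adjusted p under 0.05, which held for Axin2, Rgn, Gulo and Lect2 in all 3 fits and for Tbx3 in 1.

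With an offset for base composition (GC) and transcript length, Axin2 gave a log2 fold change of 0.96, Rgn -0.67, Gulo -0.54 and Lect2 -0.70. All 4 were called in that fit, in which 6.61% of all genes tested were called, and their groups did not overlap in the corrected CPM. The reads of a few other members may be shared with overlapping genes, since the use of strand in counting is not stated in the sources used here. Listed genes overlap Glul (Mir8114 and Teddm2), Lgr5 (A930009A15Rik), Oat (Fgfr2) and Rnf43 (1110028F11Rik). None of the 4 called members overlaps another gene of the count table. Axin2 does overlap Gm11670, an antisense gene on the other strand that the count table does not list. Its part in the Axin2 reads was not tested.

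The extreme CPM values of the members fell in few livers. The same was not counted over all genes, so that these counts do not set the members apart. Chow 2 was the lowest Chow liver for 5 members (Oat, Axin2, Lgr5, Znrf3 and Rgn) and the highest for 4 (Tbx3, Rnf43, Gulo and Lect2). Chow 4 was the lowest for the other 5. TM5614 2 was the lowest of its group for 7 members, all but Oat, Rgn and Lect2. In the CPM corrected for GC content and length, Chow 2 was no longer the lowest for Lgr5 or Rgn, nor the highest for Rnf43 or Gulo. There it stayed the lowest Chow liver for Oat, Axin2 and Znrf3 and the highest for Tbx3 and Lect2. The part of GC content or muscle RNA in these extreme values was not tested beyond this and the fits above.

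Levels of different genes are compared per length, in the deposited FPKM. In Chow, the medians were 515 for Oat, 506 for Rgn and 334 for Glul, then 145 for Gulo and 83.7 for Lect2. Tbx3 (7.57), Rnf43 (6.10), Znrf3 (2.20), Axin2 (1.26) and Lgr5 (1.08) formed the lower end, so that the metabolic and secreted products stood above the pathway genes in every liver. Neighbours whose ranges overlapped were Oat and Rgn, Gulo and Lect2, Tbx3 and Rnf43, Znrf3 and Axin2, and Axin2 and Lgr5. In TM5614 the order of medians was Oat (718), Rgn (328), Glul (298), Gulo (105), Lect2 (53.6), Tbx3 (10.2), Rnf43 (4.60), Axin2 (2.32), Znrf3 (2.13) and Lgr5 (1.34). There the ranges of Oat and Rgn were apart, those of Rgn and Glul overlapped, and Rnf43, Axin2, Znrf3 and Lgr5 overlapped each with the next. The 1 change of order was at Axin2, which was below Znrf3 in 4 of 5 Chow livers and above it in 4 of 5 TM5614 livers.

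**Figure D3:**
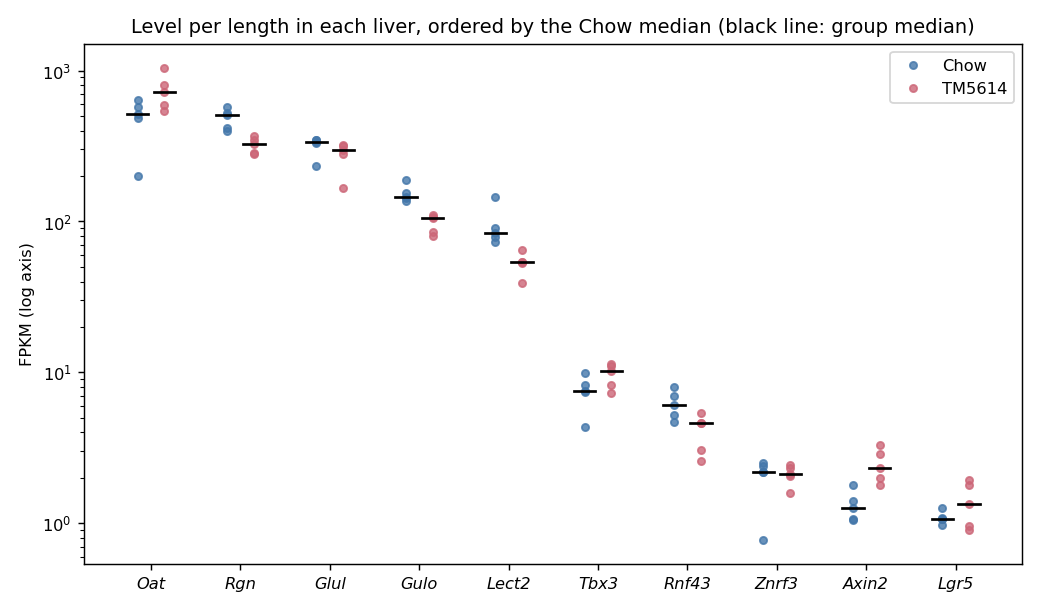
Deposited FPKM (y axis, log scale) of the 10 genes (x axis, ordered by the Chow median) in each Chow and TM5614 liver. Points are single mice and black lines are group medians. Oat, Rgn, Glul, Gulo and Lect2 lie above the other 5 genes in every liver, and Axin2 is the gene whose place in the order changed between groups.

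The other genes of the pathway were read from lists of Wnt genes by role, 83 genes in all, of which 53 passed the filter on low counts. By edgeR 0 of the 53 were called. At an unadjusted p under 0.05 there were 12, or 22.6%, beside 20.4% of all genes tested. DESeq2 called 4 of them, where it called 8.11% of all genes tested, and limma-voom with sample quality weights called 6, where it called 12.5%. The median log2 fold change of the 53 was 0.01, the same as over all genes.

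Among the ligands, 5 of 12 were tested and Rspo2 and Rspo4 had 0 counts in all libraries. Rspo3, the R-spondin of the central vein, was at 5.40 ± 2.25 CPM in Chow and 6.70 ± 0.953 CPM in TM5614, a log2 fold change of 0.30 (SE 0.25, with an adjusted p of 0.519 in edgeR), which limma-voom estimated at 0.66 (adjusted p = 0.0463). In edgeR it was 0.55 without Chow 2 (adjusted p = 0.123) and 0.16 without Chow 3 (adjusted p = 0.723). Wnt2, a ligand of the same endothelium, had a log2 fold change of -0.14 (SE 0.36, adjusted p = 0.847), which was 0.23 without Chow 2 (adjusted p = 0.721), and Wnt9b was below the filter, at 0.593 ± 0.214 and 0.490 ± 0.253 CPM. The groups overlapped for all 3 of these ligands.

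Of the receptors and co-receptors 11 of 17 were tested, with a median of 0.19. Lgr4, the R-spondin receptor related to Lgr5, had a log2 fold change of 0.05 (SE 0.25), the co-receptor Lrp6 0.19 (SE 0.23) and the receptor Fzd4 -0.20 (SE 0.25). None of these 3 was called in edgeR (adjusted p = 0.927, 0.660 and 0.671). Without Chow 2 the estimates were -0.16 for Lgr4, -0.01 for Lrp6 and -0.41 for Fzd4 (adjusted p = 0.280, 0.953 and 0.0650). For Fzd4, the estimate was -0.10 without Chow 5 and -0.13 without TM5614 5. The co-receptor Lrp5, named after its values were seen, was at 61.7 ± 8.47 CPM in Chow and 83.8 ± 7.81 CPM in TM5614, with no overlap, a log2 fold change of 0.44 (SE 0.12) and an edgeR adjusted p of 0.0613, and its groups did overlap after the GC and length offset. Lrp5, Fzd7, Dvl2 and Tle3 were the 4 that DESeq2 called.

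In the β-catenin transduction and destruction list, 15 of 16 genes were tested and the median was -0.00. The scaffold Axin1, which is close to Axin2 in sequence and function but not known as a feedback target, was at 27.9 ± 4.10 CPM in Chow and 25.5 ± 2.82 CPM in TM5614, a log2 fold change of -0.13 (SE 0.13, with an adjusted p of 0.577 in edgeR). Apc, another part of the complex, had 0.17 (SE 0.24, adjusted p = 0.706) and Ctnnb1, which encodes β-catenin, 0.28 (SE 0.18, adjusted p = 0.389). Without Chow 2 these were -0.05 for Axin1, -0.04 for Apc and 0.12 for Ctnnb1. Of the transcription factors and cofactors 12 of 14 were tested, with a median of 0.01, and Tcf7l2, the main Tcf factor of hepatocytes, had 0.00 (SE 0.10, adjusted p = 0.986), and 0.05 without Chow 2. Only 4 of 16 secreted and membrane inhibitors passed the filter, with a median of -0.17. Of 8 other Wnt target genes 6 were tested, with a median of 0.01 and estimates on both sides of 0, the median size regardless of sign being 0.46, beside 0.22 for all genes. Of these 6, Tnfrsf19 and Zbtb16 had an unadjusted p under 0.05 (20.4% of all genes) and were called by limma-voom (12.5% of all genes).

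**Figure D4:**
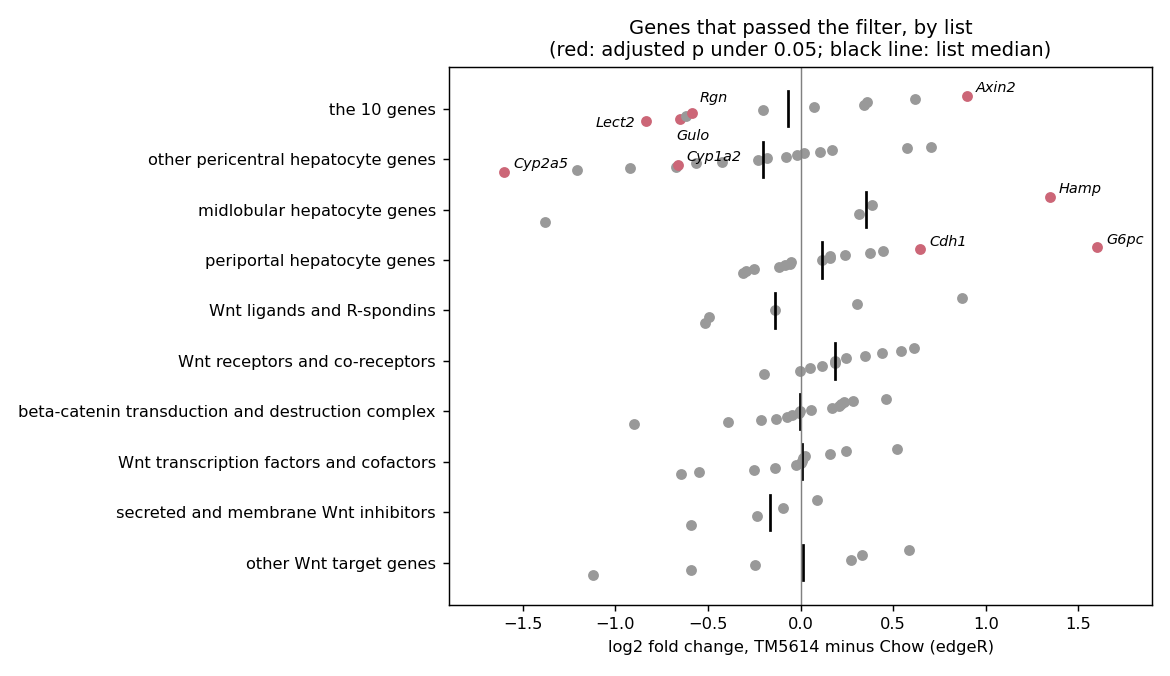
Log2 fold change, TM5614 minus Chow (x axis), of each gene that passed the filter on low counts, by list (y axis). Red points have an edgeR adjusted p under 0.05 and are named, grey points do not, and black lines are list medians. The called genes are Axin2, Rgn, Gulo and Lect2 of the 10 genes, Cyp1a2 and Cyp2a5 of the pericentral list, G6pc and Cdh1 of the periportal list and Hamp of the midlobular list, with none in the 6 lists of Wnt genes.

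Among 16 other pericentral hepatocyte genes, 2 fell and 0 rose, and the median was -0.20. These were Cyp1a2, a cytochrome P450 of drug and oestrogen metabolism (401 ± 59.6 to 253 ± 17.1 CPM, log2 fold change -0.66, SE 0.12, edgeR adjusted p = 0.00791), and Cyp2a5, the coumarin hydroxylase (1337 ± 338 to 441 ± 122 CPM, log2 fold change -1.60, SE 0.21, adjusted p = 0.00153). The 5 livers of each group did not overlap for either gene. In contrast to these, Cyp2e1, the ethanol-inducible P450, was at 11204 ± 2165 CPM in Chow and 11353 ± 1426 CPM in TM5614, a log2 fold change of 0.02 (SE 0.15, adjusted p = 0.951), and over single omissions -0.05 to 0.12. The glutamate transporter Slc1a2 had a log2 fold change of -0.02 (SE 0.20, adjusted p = 0.960), and -0.18 without Chow 2. The ammonia transporter Rhbg, at 7.47 ± 3.21 and 3.94 ± 1.03 CPM, had -0.92 (SE 0.30, with an adjusted p of 0.109 in edgeR) and passed in DESeq2 (adjusted p = 0.0466). The 2 called by edgeR compare with 4.50% of all genes tested. At an unadjusted p under 0.05 there were 9 of the 16 genes (20.4% of all genes). DESeq2 called 7 (8.11% of all genes) and limma-voom called 3 (12.5% of all genes). The 9 did not all fall. By edgeR the estimates for Avpr1a (0.57, SE 0.18) and Slc22a3 (0.70, SE 0.30) lay above 0, and the rest lay below. Neither of these passed after adjustment in edgeR (0.0989 for Avpr1a and 0.217 for Slc22a3). Avpr1a was among those that DESeq2 called.

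Of 15 periportal hepatocyte genes, 2 rose and 0 fell, with a median of 0.11. The first was G6pc, the catalytic subunit of glucose-6-phosphatase (188 ± 50.7 to 571 ± 147 CPM, log2 fold change 1.60, SE 0.22, edgeR adjusted p = 0.00185). The second was Cdh1, which encodes E-cadherin (26.9 ± 5.49 to 42.1 ± 7.66 CPM, log2 fold change 0.65, SE 0.17, adjusted p = 0.0482). For Cdh1 the groups were barely apart (Chow up to 33.0 CPM, TM5614 from 33.2 CPM), and they overlapped after the GC and length offset. Cyp2f2, Hal and Cps1, a periportal P450 and enzymes of histidine breakdown and of the urea cycle, had log2 fold changes of -0.05 (SE 0.11), 0.11 (SE 0.14) and 0.44 (SE 0.31) and were not called (adjusted p = 0.831, 0.672 and 0.429). The estimate for Cps1 was 0.21 without Chow 2 (adjusted p = 0.446), that for Cyp2f2 was then -0.10, and that for Hal ran from 0.026 without Chow 2 to 0.22 without Chow 4. At an unadjusted p under 0.05 there were 4 of the 15 genes, or 26.7%, near the 20.4% of all genes. DESeq2 called 2 of them (8.11% of all genes) and limma-voom 3 (12.5% of all genes). Of 4 midlobular genes, edgeR called 1 higher and 0 lower. The gene that rose was the iron hormone gene Hamp (311 ± 127 to 790 ± 239 CPM, log2 fold change 1.35, SE 0.29, adjusted p = 0.0231). Hamp2 had an estimate in the other direction, -1.38 (SE 0.43, edgeR adjusted p = 0.102), and was called by DESeq2 and limma-voom. At an unadjusted p under 0.05 there were 3 of the 4 genes, DESeq2 called 2 and limma-voom called 3.

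As a rough measure of zone, the mean log2 CPM of the 15 periportal genes was subtracted from that of the 16 other pericentral genes. The difference weighs each gene equally and may carry library effects beside zone. It was -1.67, -1.35, -1.76, -2.18 and -1.58 in Chow 1 to 5 and -1.98, -2.63, -2.07, -2.37 and -1.94 in TM5614 1 to 5. The groups overlapped through Chow 4. Chow 2, where the trend with GC content and gene length was strongest, had the highest difference. Its periportal mean was 8.24, against 8.61 to 9.02 in the other Chow livers. Chow 4 and TM5614 2, the lowest of their groups on this measure, were also the livers with the lowest Glul. Gulo was likewise lowest of its group in Chow 4 (313 CPM) and in TM5614 2 (188 CPM). Between the groups, Gulo was higher in Chow 4 than in every TM5614 liver.

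**Figure D5:**
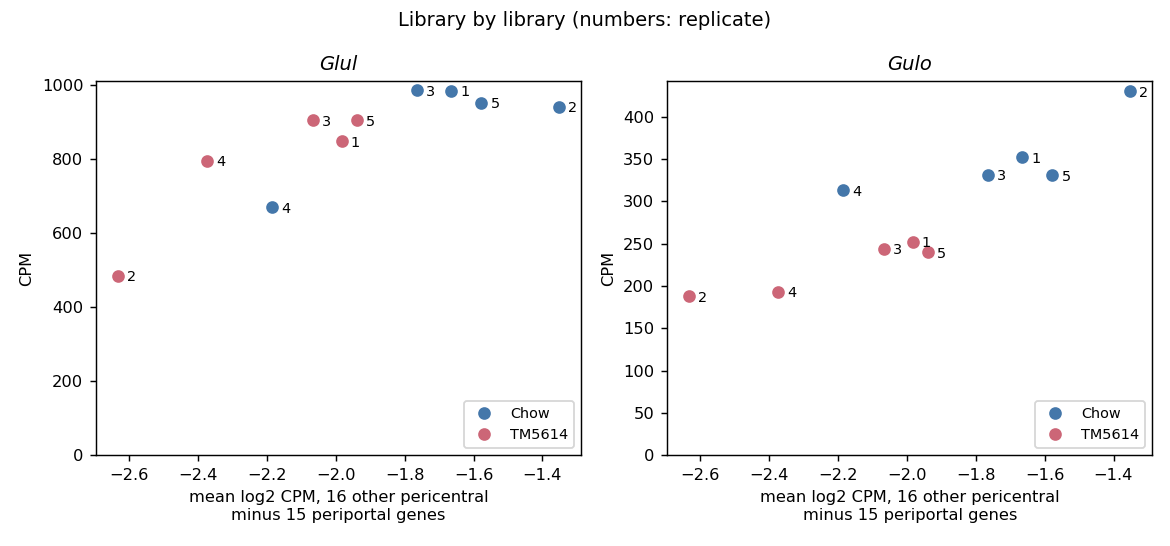
CPM of Glul and of Gulo (y axes, from 0) against the mean log2 CPM of 16 other pericentral genes minus that of 15 periportal genes (x axes) in each liver, with replicate numbers. Chow 4 and TM5614 2 have the lowest Glul, the lowest Gulo and the lowest x value of their groups. For Gulo every Chow liver lies above every TM5614 liver.

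The pattern over the 10 libraries was compared between each called member and 8588 other genes, by the root mean square difference of log2 CPM after centring each gene on its own mean. Nearest to Axin2 were Cyp4f17 (0.187) and Nfya (0.203), where the median gene was at 0.570. Nearest to Rgn were Pm20d1 (0.0859) and Pipox (0.118), to Gulo Acsm1 (0.109) and Akr1c6 (0.122), and to Lect2 Igfals (0.124) and Cutal (0.128), with medians of 0.439, 0.446 and 0.555. Between the members that fell, the differences were 0.201 for Gulo and Lect2, 0.218 for Gulo and Rgn, and 0.366 for Rgn and Lect2. Of the members not called, the nearest were Rnf43 to Gulo (0.284), Glul to Rgn (0.294) and Rnf43 to Lect2 (0.371). So Rgn was nearer to Glul than to Lect2. The measure includes the difference between groups, which alone brings genes called in the same direction nearer. All of these share libraries, so that they describe these 10 livers only.

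Of the marker lists for hepatocytes and other liver cells, 0 of the 43 genes tested were called by edgeR, where 4 had an unadjusted p under 0.05 (20.4% of all genes). DESeq2 called 1, the hepatocyte gene Ttr, and limma-voom called 3, Ttr, Rspo3 and the stellate gene Dcn. The 6 central vein endothelium markers summed to 8.25 to 15.9 CPM in Chow and 10.3 to 19.2 CPM in TM5614, and the 8 sinusoidal endothelium markers to 101 to 169 and 101 to 176 CPM. All 10 Kupffer cell markers had estimates below 0, with a median of -0.43 and sums of 83.4 to 264 and 83.2 to 178 CPM. The 8 stellate markers summed to 180 to 313 and 283 to 374 CPM, and the 7 cholangiocyte markers to 39.0 to 55.7 and 31.5 to 81.1 CPM. Their part in the results for the members was not tested.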

How the data were processed

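Liver RNA of 10 mice was analysed, 5 per group, with groups and replicate numbers from the sample titles and columns matched by mouse number. Per the study's methods, poly(A) libraries were sequenced as 75 bp single-end reads, and aligned with STAR to mm10 in the RNA Express application. The submitters' processing notes also name HOMER. The counting tool, annotation, tool versions and use of strand are not given in the sources used here. The authors deposited counts per gene that were not normalized, and FPKM values, in which each count is divided by the length of its gene and by a factor for its library. Their FPKM divisors followed DESeq2 size factors across libraries. Deposited regularised log values were not used, and neither was a table of the authors' own comparison (fold changes and p-values). All 20 within-group pairs of libraries differed beyond sampling noise in their counts (chi-square of at least 8.00 per degree of freedom), and each was used as a separate library.

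Genes were kept with filterByExpr (11092 of 17291 with a count), scaled with TMM and tested under R 4.3.3 with the two-sided quasi-likelihood test of edgeR 4.0.16, without a block. P-values were adjusted by Benjamini-Hochberg over every gene that passed the filter, at a threshold of 0.05. The SE of a log2 fold change is its size divided by the root of its F statistic. Log2 CPM had a prior count of 2. The scripts were tested on simulated data. Alternatives were DESeq2 1.42.0, limma-voom (limma 3.58.1) with sample quality weights, other scaling factors and filters, the replicate number as a block, an offset for GC content and gene length (splines with 5 degrees of freedom), both libraries numbered 2 left out, and each library left out. The members and lists were chosen with earlier results of these data known. Named by rule were all members, every gene of the other lists called by edgeR and a set list of Wnt and zonation genes. Lrp5, Fzd7, Dvl2, Tle3, Tnfrsf19, Zbtb16, Avpr1a, Slc22a3, Hamp2, Ttr and Dcn were named after their values were seen. For each called member the 2 nearest genes with a mean of at least 50 counts were named. Gene coordinates come from the GENCODE M21 annotation (GRCm38, the same assembly as mm10), matched on symbol. Values of single libraries carry counting error at these depths (6398335 to 10874955 counts) beside the spread between mice.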

Additional observations from a re-analysis of the deposited data

Results flagged for a closer look

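Of the 20 groups of 5 values (10 genes in 2 groups), 4 held a liver far from the others by Dixon's test, where chance gives about 1. Glul was at 670 CPM in Chow 4, where the other Chow livers were at 940 to 985 CPM. Glul was at 485 CPM in TM5614 2, where the others of that group were at 795 to 904 CPM. Both livers also had the lowest difference between pericentral and periportal genes in their groups.

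Chow 2 held the other 2 values. Znrf3 was at 5.98 CPM there, beside 16.9 to 19.4 CPM in the other Chow livers, and after correction for GC content and gene length it was at 7.31, beside 17.0 to 18.2. Lect2 was at 128 CPM there, beside 65.6 to 80.3 CPM, and after that correction at 96.2, beside 62.6 to 83.4. The library differences behind these values were not tested further.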

How the results depend on the processing

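The call of Axin2, Rgn, Gulo and Lect2 held in each of the 11 alternatives that kept all libraries or left out both numbered 2. The count of called members was 4 in 10 of them and 5, with Tbx3, without both libraries numbered 2. With single libraries left out it ranged from 1 to 4, at 2 without Chow 1, 3 or 5 or TM5614 2, and 1 without TM5614 3 or 4, where Gulo alone was called. Of all genes, 499 were called, against 900 with DESeq2, 1386 with limma-voom, 777 with the GC and length correction and block together and 1230 without both libraries numbered 2. Single omissions gave 235 (without TM5614 3) to 1031 (without Chow 2), with 293 without Chow 3, 331 without TM5614 1 and 259 without TM5614 4. Of 130 other listed genes, 5 were called, against 16 with DESeq2, 17 with limma-voom, 8 with the GC and length correction, 9 with that correction and the block, 13 without both libraries numbered 2, and 3 to 11 over single omissions. The causes of these moves were not tested.

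Only genes that were not called changed sign. With limma-voom the log2 fold change was -0.086 for Znrf3, -0.12 for Lgr4 and 0.18 for Wnt2. With the GC and length correction it was -0.0043 for Cyp2e1, 0.045 for Cyp2f2 (0.072 with the block), -0.031 for Lgr4 and -0.10 for Tcf7l2 (-0.086 with the block). Tcf7l2 was also at -0.0022 with DESeq2 and -0.0027 with at least 10 counts in every library. Without both libraries numbered 2 it was -0.066 for Znrf3, -0.013 for Apc, -0.034 for Hal and -0.15 for Lgr4. Slc1a2 was at 0.024 with library totals and 0.013 with the block. Over single omissions the ranges were -0.15 to 0.17 for Znrf3, -0.041 to 0.25 for Apc, -0.049 to 0.12 for Cyp2e1, -0.10 to 0.028 for Cyp2f2, -0.16 to 0.14 for Lgr4, -0.012 to 0.26 for Lrp6, -0.18 to 0.056 for Slc1a2, -0.032 to 0.053 for Tcf7l2 and -0.30 to 0.23 for Wnt2. The cause was not tested. No scaling moved the median over all genes beyond 0.06.

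The replicate numbers did not pair the samples: the correlations of deviations were 0.03, 0.32, 0.12, 0.03 and 0.25, and only Chow 2 correlated best with its own number. With the replicate block, 555 genes, 4 members and 7 other listed genes were called. For genes such as Axin2 and Lgr5, with under 130 counts in every library, counting error limits the precision.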

Other observations

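Within Chow, the coefficient of variation of CPM was 10.0% for Lgr5, 13.1% for Gulo and 14.7% for Glul, and 35.1% for both Oat and Znrf3. The value for Lgr5 rests on 33 to 66 counts per library, where counting error is large. Without Chow 2, the SD of Znrf3 was 1.21 CPM instead of 5.47, and that of Lect2 was 6.17 CPM instead of 25.5. In TM5614 the coefficients ran from 11.4% for Rgn to 33.8% for Lgr5.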
